A study of Mus musculus with 6 samples.

Results

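Arid3a occupancy was described at the genes of potassium, calcium and transient receptor potential (TRP) channels in mouse vascular smooth muscle cells (VSMCs). The members were the protein-coding genes whose symbols begin with Kcn, Cacna, Cacnb, Cacng, Trpc, Trpv or Trpm, which gave 143 of 21887 protein-coding genes. A peak belonged to a gene if at least 1 bp of it fell in the gene body or within 10 kb of it. Trpc4ap and Trpc5os met the symbol rule by name only and encode no channel pore or channel subunit family. They were kept in the totals and form a class of their own. Without them 141 genes remained, of which 70 held a region present in all 6 libraries, and 172 of 602 regions and 9 starts had a peak in every library.

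Arid3a binds DNA through an AT-rich interaction (ARID) domain and acts as a transcription factor, and CUT&Tag maps it by letting an antibody bring a transposase to the chromatin that carries it. The siRNA-labelled group held 3 libraries of cells transfected with an siRNA against Arid3a, each with a siRNA number of its own (1, 2 and 3). The NC-labelled group held 3 libraries of cells given the negative control. All cells were commercial primary mouse VSMCs, with transfection for 24 h and 10000 cells in an assay, and the labels give neither strain nor age nor whether libraries of a group were separate cultures. The p-values thus reflect how far these libraries scatter, and that scatter may be technical. The labels also describe a 36 h angiotensin II model of aortic aneurysm without stating which libraries were exposed.

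Voltage-gated calcium channels (Cav) admit the calcium that contracts smooth muscle when the membrane depolarises. Potassium channels let potassium leave the cell, which pulls the membrane potential down and closes Cav channels, so the balance of both sets arterial tone. TRP channels are mostly non-selective cation channels that open on stretch, lipid messengers, temperature or store depletion. A peak near such a gene marks occupancy and not transcript level, and no RNA was measured.

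The lists held 43834, 50333 and 51682 peaks in siRNA-labelled libraries 1 to 3 and 47789, 49653 and 50047 peaks in NC-labelled libraries 1 to 3. The background solved from each list, a proxy of depth, was 0.475 to 0.538 fragments per base in siRNA-labelled and 0.621 to 0.673 in NC-labelled libraries. The groups did not overlap in it (exact permutation p = 0.1, the smallest possible for 3 against 3), so coverage and treatment cannot be told apart. The peak names inside 6 of 6 lists carry the name of the other group, and every direction below follows the sample labels. The smooth muscle label could not be checked by occupancy: a region with a peak in all 6 libraries lay near 5 of 6 smooth muscle markers (Acta2, Tagln, Myh11, Cnn1 and Smtn, not Des), but also near 2 of 5 endothelial, 3 of 5 macrophage, 1 of 4 T cell, 2 of 4 cardiomyocyte, 3 of 4 neuronal and 4 of 4 fibroblast markers.

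Few channel genes had an Arid3a peak at their start. Of 110 channel genes with a start in the RefSeq promoter table, 10 (9.09%) had a peak over a start in all 6 libraries, against 41.0% of 17492 protein-coding genes. In 80 of the 110 (72.7%) no library had a peak over a start, against 46.8% of all genes. The 10 were Kcnn4 and Kcnt2 (calcium- and sodium-activated potassium channels), Kcnj2 (inward rectifier), Kcnk5 (acid-sensitive background channel), Kcnab2 (Kv beta subunit), Cacna2d1 and Cacnb3 (Cav auxiliary subunits), Trpc1, Trpm7 and Trpc4ap. None was a pore-forming Kv or Cav gene: 0 of 25 Kv alpha genes and 0 of 7 Cav alpha1 genes with a start in the table had a peak over it in every library. In the nearest case, a Kv alpha gene had a peak over its start in 5 libraries, in a region present in all 6.

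In mammals, starts rich in CpG are typical of broadly used genes, so the starts were also counted by CpG content, and in each bin the channel share lay below that of all starts. Among starts with at least 20 CpG in the 300 bases, a peak in all 6 libraries lay over 5 of 44 channel starts (11.4%) and over 68.5% of 7641 starts of all protein-coding genes. With 10 to 19 CpG the shares were 3 of 25 channel starts (12.0%) and 52.4% of all. With fewer than 10 CpG they were 2 of 79 (2.53%) and 6.85%. These shares are descriptions, and no test was made of their difference.

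Of the starts with a peak in every library, the 6 with the highest-ranked peak are shown, because there Arid3a signal met a channel gene promoter. The 300 bases run from 250 before to 50 after each start, 5′ to 3′ on the gene's strand, from RefSeq on GRCm38.p6, the assembly of mm10. Capitals mark ATTAAA (the core given for mouse Arid3a in motif collections), GGGCGG (GC box) and CCAAT on either strand.
Kcnj2 (chr11:111065914-111066213, + strand): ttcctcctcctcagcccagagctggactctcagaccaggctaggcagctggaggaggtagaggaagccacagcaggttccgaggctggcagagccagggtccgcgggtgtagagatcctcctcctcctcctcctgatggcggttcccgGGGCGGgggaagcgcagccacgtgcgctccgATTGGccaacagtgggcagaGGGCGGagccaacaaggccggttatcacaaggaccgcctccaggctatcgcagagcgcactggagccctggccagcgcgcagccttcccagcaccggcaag
Kcnn4 (chr7:24370013-24370312, + strand): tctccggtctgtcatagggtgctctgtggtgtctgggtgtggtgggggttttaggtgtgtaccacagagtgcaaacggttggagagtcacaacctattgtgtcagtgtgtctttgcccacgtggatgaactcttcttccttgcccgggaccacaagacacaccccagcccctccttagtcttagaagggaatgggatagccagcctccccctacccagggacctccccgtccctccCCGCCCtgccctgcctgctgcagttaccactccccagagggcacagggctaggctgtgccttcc
Kcnab2 (chr4:152477500-152477799, - strand): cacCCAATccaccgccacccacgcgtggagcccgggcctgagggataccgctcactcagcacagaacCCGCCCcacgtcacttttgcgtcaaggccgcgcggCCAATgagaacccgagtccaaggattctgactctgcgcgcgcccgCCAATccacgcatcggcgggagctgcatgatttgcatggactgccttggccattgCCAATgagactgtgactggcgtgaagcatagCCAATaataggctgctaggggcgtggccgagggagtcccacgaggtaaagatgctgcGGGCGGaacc
Cacnb3 (chr15:98632078-98632377, + strand): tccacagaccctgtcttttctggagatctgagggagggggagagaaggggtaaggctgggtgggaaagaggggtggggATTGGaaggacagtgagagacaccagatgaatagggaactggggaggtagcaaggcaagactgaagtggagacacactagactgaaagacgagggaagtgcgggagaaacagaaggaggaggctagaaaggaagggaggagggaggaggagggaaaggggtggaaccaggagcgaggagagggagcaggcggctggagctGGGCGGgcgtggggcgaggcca
Trpm7 (chr2:126876212-126876511, - strand): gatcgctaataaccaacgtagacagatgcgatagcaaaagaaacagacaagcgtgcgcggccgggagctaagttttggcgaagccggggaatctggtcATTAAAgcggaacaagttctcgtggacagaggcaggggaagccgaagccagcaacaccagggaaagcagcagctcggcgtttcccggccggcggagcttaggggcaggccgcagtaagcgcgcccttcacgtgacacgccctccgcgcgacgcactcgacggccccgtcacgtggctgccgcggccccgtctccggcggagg
Trpc4ap (chr2:155692335-155692634, - strand): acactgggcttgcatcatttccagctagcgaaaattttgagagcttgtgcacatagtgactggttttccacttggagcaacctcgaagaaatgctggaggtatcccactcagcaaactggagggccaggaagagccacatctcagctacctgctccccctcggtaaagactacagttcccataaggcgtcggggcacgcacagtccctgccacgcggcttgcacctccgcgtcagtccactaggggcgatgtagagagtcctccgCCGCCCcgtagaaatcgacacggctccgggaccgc
In these 6 starts only Trpm7 held ATTAAA, once. GGGCGG was found in Kcnj2, Kcnn4, Kcnab2, Cacnb3 and Trpc4ap, with 2 matches each in Kcnj2 and Kcnab2, and CCAAT was found 5 times in Kcnab2 and once each in Kcnj2 and Cacnb3. Over all 148 channel starts in the table, ATTAAA was present in 10.8% and GGGCGG in 43.9%, against 11.7% and 46.2% of 21263 starts of all protein-coding genes. CCAAT was present in 29.1% of channel starts and 38.2% of all starts, TATAAA in 7.43% and 12.6%, and the CArG box, the serum response factor element of contractile genes, in 1.35% and 1.52%. Each motif was searched on both strands and counted on its own, so matches that share bases count for each. Of the 10 channel starts with a peak in every library, 8 held GGGCGG and 1 held ATTAAA.

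The region over the Kcnj2 start was chr11:111064865-111066530, and Kcnj2 encodes the inward rectifier that sets the resting potential in small arteries. In siRNA-labelled library 1 and NC-labelled library 3 the region held 2 peaks, and values are of the peak with the higher −log10 q. The deposited fold at the summit was 10.3, 12.8 and 11.01 in siRNA-labelled libraries 1 to 3 and 11.002, 10.97 and 10.1 in NC-labelled libraries 1 to 3. The −log10 q was 27.8, 43.6 and 34.4 against 47.0, 47.6 and 36.0. The folds of the groups overlapped. At the Kcnn4 start (chr7:24369814-24370343) the fold was 10.3, 11.5 and 10.1 against 11.4, 12.1 and 9.91 in NC-labelled libraries. Kcnn4 encodes the intermediate-conductance calcium-activated channel, known from dividing rather than contractile smooth muscle.

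At the Trpm7 start (chr2:126875476-126876659) the fold was 11.1, 9.05 and 11.6 in siRNA-labelled and 10.6, 11.7 and 12.5 in NC-labelled libraries. Trpm7 is a magnesium-permeable channel fused to a kinase. The Trpc1 start (chr9:95749874-95750403) was weaker and more scattered, with 5, 9 and 8 summit fragments in siRNA-labelled and 15, 20 and 7 in NC-labelled libraries, and the groups overlapped. Cacnb3 encodes a Cav beta subunit that brings the pore to the membrane, and its start (chr15:98631557-98632629) had a fold of 4.87, 4.38 and 4.46 against 4.74, 5.04 and 4.71 in NC-labelled libraries. At the Kcnab2 start (chr4:152477268-152478580) it was 7.48, 8.40 and 8.73 against 8.60, 8.64 and 6.59. The strongest of these starts was that of Trpc4ap (chr2:155691773-155692633), with 13.9, 15.7 and 16.4 against 14.7, 14.2 and 15.6 in NC-labelled libraries.

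Peaks of the 6 libraries merged into 79295 regions, of which 607 lay at channel genes. A peak in all 6 libraries was present in 173 of the 607 (28.5%), against 37.3% of all regions. A peak in a single library was present in 248 channel regions (40.9%), against 30.2% of all. Inside gene bodies lay 410 of the 607 regions, while 34 lay at a start, 38 at another gene end and 125 in the flanks. Of the 125 flanking regions, 52 fell inside a different protein-coding gene. The share present in all 6 libraries was 24.1% of the regions inside genes and 41.6% of those in flanks.

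At the level of genes, 119 of 143 held at least 1 region and 71 (49.7%) held a region present in all 6 libraries, against 62.4% of all protein-coding genes. With only the 1 kb either side of both gene ends in place of body and 10 kb, 21 of the 143 remained. Channel genes are long, with a median of 42.5 kb against 17.2 kb for all protein-coding genes. Within bins of gene length the share with a region in all 6 libraries was 47.6% of 21 channel genes under 10 kb, against 45.02% of all genes of that length. From 10 to 50 kb it was 46.3% of 54 channel genes against 70.0%, from 50 to 200 kb 50% of 40 against 77.8%, and from 200 kb upwards 57.1% of 28 against 70.3%. In 50 of the 71 genes such a region lay in the gene body, and in 21 in a flank only. In 16 of the 71 every such region lay in the body of a different gene.

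**Figure D1:**
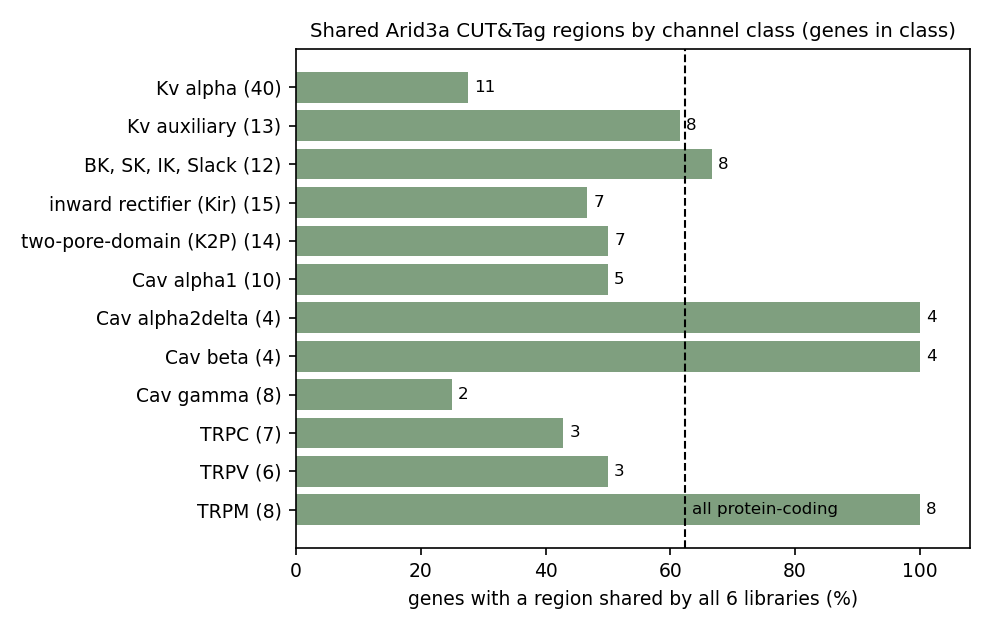
Horizontal bars give the percent of genes of each channel class with an Arid3a region present in all 6 libraries, the number at each bar counts those genes, and the number of genes in the class stands in parentheses. The dashed line marks 62.4% of all protein-coding genes of any length. TRPM, Cav beta and Cav alpha2delta reach 100% and Kv alpha 27.5%. For Trpm5 and Cacna2d2 the only such region lay inside a neighbouring gene.

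The voltage-gated potassium (Kv) alpha subunits, which form the delayed rectifier and transient currents, were the largest class and among the poorest in regions. Of 40 genes, 11 (27.5%) held a region present in every library, 18 held only regions of 1 to 5 libraries and 11 held none. Those without a region included Kcna2, Kcna3, Kcna5, Kcna6, Kcna10, Kcnc1, Kcng1, Kcns1, Kcns2 and Kcnv1. The class held 83 regions, of which 16 were present in all 6 libraries. Kcnh1, an ether-à-go-go channel, had 14 regions with 4 in all libraries. The strongest Kv alpha regions lay in neighbouring genes: that of Kcnh4 (chr11:100737942-100738817) lay in Rab5c, with 264, 354 and 347 summit fragments in siRNA-labelled and 354, 353 and 303 in NC-labelled libraries. That of Kcna7 (chr7:45395271-45396391) lay in Snrnp70, with a fold of 11.8, 14.6 and 10.9 against 11.4, 12.0 and 11.3 in NC-labelled libraries.

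The Kv auxiliary genes encode the beta subunits (Kcnab), the KChIP calcium sensors (Kcnip) and the single-span MinK-like peptides (Kcne), and also the Kv suppressor Kcnrg. All 13 held a region and 8 a region present in all 6 libraries. Kcnab1, whose product speeds inactivation of Kv channels, had 11, 14 and 14 regions in siRNA-labelled and 12, 14 and 15 in NC-labelled libraries, 5 of its 23 regions in every library. Kcnab2 was led by a region inside the gene with a fold of 13.9, 16.05 and 13.9 in siRNA-labelled against 13.0, 15.5 and 13.3 in NC-labelled libraries, and the groups overlapped. The region assigned to Kcnip2 (chr19:45782649-45784027) lay 8318 bp beyond the gene inside Oga and held 319, 329 and 371 against 419, 445 and 371 fragments, with a fold of 17.1, 17.5 and 17.0 in siRNA-labelled and 16.3, 16.4 and 15.7 in NC-labelled libraries. It was the strongest channel region by within-list rank of −log10 q, as a median over the 6 libraries.

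Calcium- and sodium-activated potassium channels couple the calcium level to the membrane potential. A region present in all 6 libraries was held by 8 of 12 genes (66.7%). Kcnma1, the pore of the large-conductance (BK) channel that opposes constriction, had 12, 15 and 15 regions in siRNA-labelled and 13, 11 and 16 in NC-labelled libraries. All 28 of its regions lay inside the gene, none at a start, and 5 were present in all 6 libraries. Its strongest region (chr14:23632899-23633707) had a fold of 8.58, 9.44 and 10.7 in siRNA-labelled and 9.60, 8.67 and 11.5 in NC-labelled libraries. Kcnmb1, the beta subunit that raises the calcium sensitivity of BK in smooth muscle, had no peak within 10 kb in any library, nor did Kcnn2. Kcnn4 had 5 regions and each of the 5 was present in all 6 libraries. Kcnmb3, another BK beta subunit, was led by a region in its neighbour Zfp639 with a fold of 9.41, 15.4 and 11.4 against 10.0, 12.8 and 9.57 in NC-labelled libraries.

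Inward rectifiers (Kir) pass potassium more readily into the cell than out of it. A region present in every library was held by 7 of 15 genes, while Kcnj1, Kcnj5 and Kcnj13 held none. Kcnj10, known from glia, had 1 such region inside the gene and 1 in its flank inside Pigm, the stronger, inside the gene, with a fold of 13.4, 15.1 and 15.5 in siRNA-labelled and 12.9, 15.1 and 15.4 in NC-labelled libraries. Kcnj8, the pore of the vascular KATP channel, had a peak in siRNA-labelled library 2 alone, with 7 summit fragments. The tandem-pore (K2P) genes encode the background leak, and 7 of 14 held a region present in every library, with none at Kcnk15. Kcnk3, an acid-sensitive leak channel of pulmonary artery smooth muscle, held such regions inside the gene, the stronger with 15, 13 and 14 fragments in siRNA-labelled and 16, 15 and 13 in NC-labelled libraries. Kcnk5 was led by a region inside the gene with a fold of 10.6, 13.1 and 13.0 against 12.1, 12.3 and 9.27 in NC-labelled libraries, and Kcnk4 by a region overlapping Catsperz and Esrra with 7.75, 8.94 and 10.3 against 8.15, 9.60 and 9.98.

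Among the pore-forming Cav alpha1 genes, Cacna1c held the most regions of all 143 members. Cacna1c encodes the pore of the L-type channel that carries the calcium current of arterial smooth muscle. It had 28, 27 and 33 regions in siRNA-labelled and 29, 33 and 32 in NC-labelled libraries. Its 53 regions made up 8.73% of all channel regions, and 19 were present in all 6 libraries. The gene is 610 kb long and held 8.41 regions per 100 kb of gene and flanks. Cacna1a held 8.08, and all protein-coding genes of at least 200 kb held 2.56. The gene spans chr6:118587240-119197384 on the minus strand. The 19 regions lay 22.0 to 465 kb downstream of its annotated start, taken as the 5′ end of the gene. The promoter table also holds internal starts, and no library had a peak over any start of the gene. Of the 19, the region at chr6:119108891-119109593 lay just upstream of the internal start at chr6:119108495. Fold over the 19 ran from 3.21 to 15.7 in siRNA-labelled and from 3.59 to 13.0 in NC-labelled libraries. The strongest (chr6:118983752-118984868) had a fold of 10.2, 10.7 and 15.7 in siRNA-labelled and 12.0, 13.0 and 11.3 in NC-labelled libraries, with −log10 q of 33.5, 34.9 and 77.5 against 65.1, 70.7 and 52.3. The groups overlapped there, with siRNA-labelled library 3 the highest of all.

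**Figure D2:**
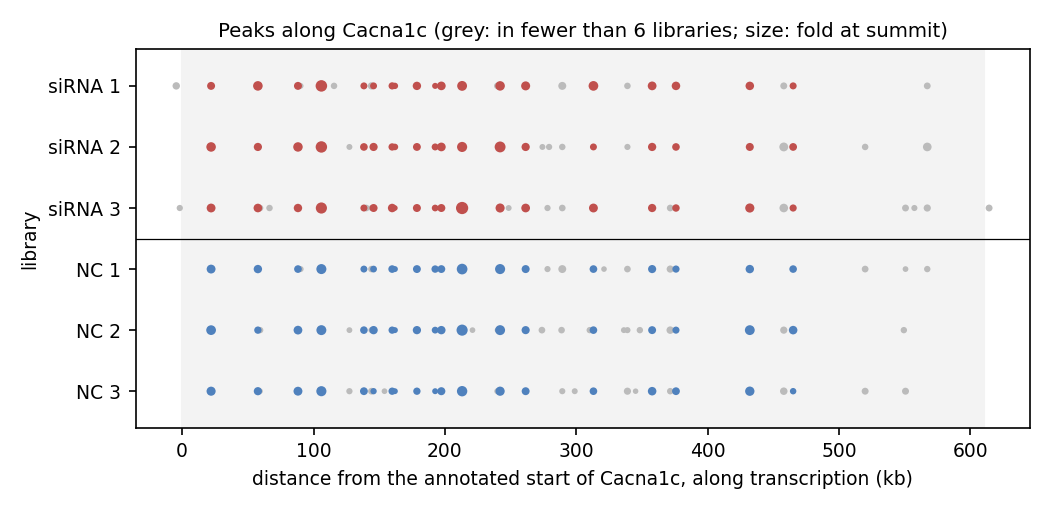
Each point is a deposited peak along Cacna1c in 1 library, at its distance in kb from the annotated start along transcription, siRNA-labelled libraries above NC-labelled ones, with point size by fold at the summit. Coloured points are peaks in the 19 regions present in all 6 libraries, which recur at the same distances between 22.0 and 465 kb, and grey points are peaks in regions of fewer libraries.

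Cacna1a, the P/Q-type pore of nerve terminals, was next among Cav alpha1 genes with 26 regions, 8 of them in every library. Its strongest region (chr8:84501550-84502319) had a fold of 18.9996, 16.5 and 15.99 in siRNA-labelled and 14.2, 17.5 and 16.2 in NC-labelled libraries. Together with Kcnma1, Cacna1c and Cacna1a held 107 of the 607 regions and 32 of the 173 present in every library. The T-type pores differed in their regions: Cacna1g held 2 in every library, whereas Cacna1h held 4 regions, none in all 6 libraries. Cacna1i and the L-type Cacna1d held 3 and 1 in every library. Cacna1s, Cacna1b and Cacna1f held regions of 1 to 5 libraries, and Cacna1e held none.

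All 4 Cav alpha2delta genes and all 4 Cav beta genes, which traffic and tune the pore, held a region present in every library. Median gene length was 285 kb in the alpha2delta class and 135 kb in the beta class. Of all protein-coding genes in those length bins, 70.3% and 77.8% held such a region. Cacna2d1, the alpha2delta subunit of arterial smooth muscle, had 8, 8 and 8 regions in siRNA-labelled and 5, 7 and 6 in NC-labelled libraries, 3 of its 15 in all 6. The counts of the groups did not overlap, and no test was made for a single gene. The reverse was found at Kcne4 (1, 2 and 1 regions against 3, 3 and 3) and Kcnip4 (1, 1 and 2 against 3, 3 and 3). Kcne4 and Kcnip4 were named after their counts were seen, and these genes are not a full list of such channel genes. How often such counts occur over all genes was not counted. The only region of Cacna2d2 present in every library lay inside its neighbour Tmem115, with a fold of 15.2, 13.9 and 12.9 against 14.1, 15.4 and 13.8 in NC-labelled libraries. The upstream region of Cacnb3 (chr15:98625713-98626707) held 49, 59 and 66 fragments in siRNA-labelled and 83, 104 and 95 in NC-labelled libraries. These did not overlap before the centring used in the test of peak strength. Without centring, fragments were lower without overlap in siRNA-labelled libraries at 44 of the 173 channel regions present in every library, and higher at 0. Every siRNA-labelled library also had a lower solved background than any NC-labelled one, and the share over all regions was not counted. After centring, the log2 difference lay above 0 at 87 of the 173 and below 0 at 86. Cacnb2, the main cardiac beta subunit, also found in smooth muscle, was led by a region with a fold of 9.65, 7.21 and 10.3 against 10.2, 9.74 and 12.6. Of the gamma genes, whose products mostly serve glutamate receptors in brain, 2 of 8 (Cacng2 and Cacng8) held a region present in every library, and Cacng3 and Cacng5 held none.

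In the TRP families, all 8 TRPM genes held a region present in all 6 libraries, with 26 of their 53 regions present in every library. Median TRPM gene length was 83.4 kb, within the bin where 77.8% of all protein-coding genes held such a region. Trpm4, the calcium-activated cation channel that depolarises smooth muscle on stretch, had 5, 6 and 6 regions in siRNA-labelled and 5, 6 and 6 in NC-labelled libraries, 5 of 6 in all. Its strongest (chr7:45332928-45333868), over a gene end, had a fold of 6.56, 8.75 and 9.39 against 7.97, 10.4 and 7.93 in NC-labelled libraries. Trpm3, a steroid- and heat-sensitive channel, held 17 regions with 7 in every library, the strongest with 121, 111 and 133 uncentred fragments against 174, 168 and 197 in NC-labelled libraries. The fold at that region was 15.9, 14.6 and 14.6 against 14.8, 14.7 and 17.6, and the folds of the groups overlapped. The only region of Trpm5, the taste-cell channel, present in every library lay in its neighbour Tssc4, with a fold of 13.1, 12.5 and 12.2 against 12.6, 12.5 and 11.8.

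TRPC genes, which pass calcium after receptor stimulation, were sparse: 7 genes held 11 regions, and 3 of the genes held a region present in every library. Trpc1 held 1 and Trpc4 held 2 such regions, whereas Trpc5 held no region. Trpc6, a stretch- and diacylglycerol-operated channel of vascular smooth muscle, missed siRNA-labelled library 1 in its stronger region, which had 6 and 9 fragments in siRNA-labelled libraries 2 and 3 and 9, 10 and 14 in NC-labelled libraries. Among TRPV genes, Trpv4, an osmotic and mechanical sensor, had 4, 4 and 4 regions in siRNA-labelled and 3, 3 and 3 in NC-labelled libraries, with 3 present in all 6, and these counts too were not tested. Trpv2 held 1 and Trpv3 held 1 such region, Trpv1 held a region of fewer libraries, and the epithelial calcium channels Trpv5 and Trpv6 held none.

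Channels described in vascular smooth muscle were compared by count with channels of neurons. Of 25 smooth muscle channels, 16 (64.0%) held a region present in every library, against 62.4% of all protein-coding genes of any length. A region present in every library was held by 6 of 20 neuronal channels (30.0%), namely Cacna1a, Kcnj6, Kcnj9, Kcnip2, Cacng2 and Cacng8. Median gene length was 113 kb in the neuronal and 51.4 kb in the smooth muscle list. Of all protein-coding genes, 70.0% of those from 10 to 50 kb and 77.8% of those from 50 to 200 kb held a region present in every library. The lists were not split by length. Among smooth muscle channels, Kcna2, Kcna5 and Kcnmb1 had no peak in any library, and Kcnq5, Kcnj8, Cacna1h and Trpc6 were among those with regions but none shared by all 6. Trpc6 had at least 1 region in every library. Kcnq1, a Kv7-family channel, held a region inside the gene with a fold of 10.0, 10.3 and 8.30 against 9.75, 6.603 and 9.28. A further list held 34 genes of calcium handling outside the symbol rule. It has pumps, sensors and exchangers, but also channels of other families, such as Orai1, Piezo1, Ryr1 and Ano1. Of the 34, 28 (82.4%) held a region present in every library. Median gene length in this list was 72.6 kb, within the bin where 77.8% of all protein-coding genes held one.

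**Figure D3:**
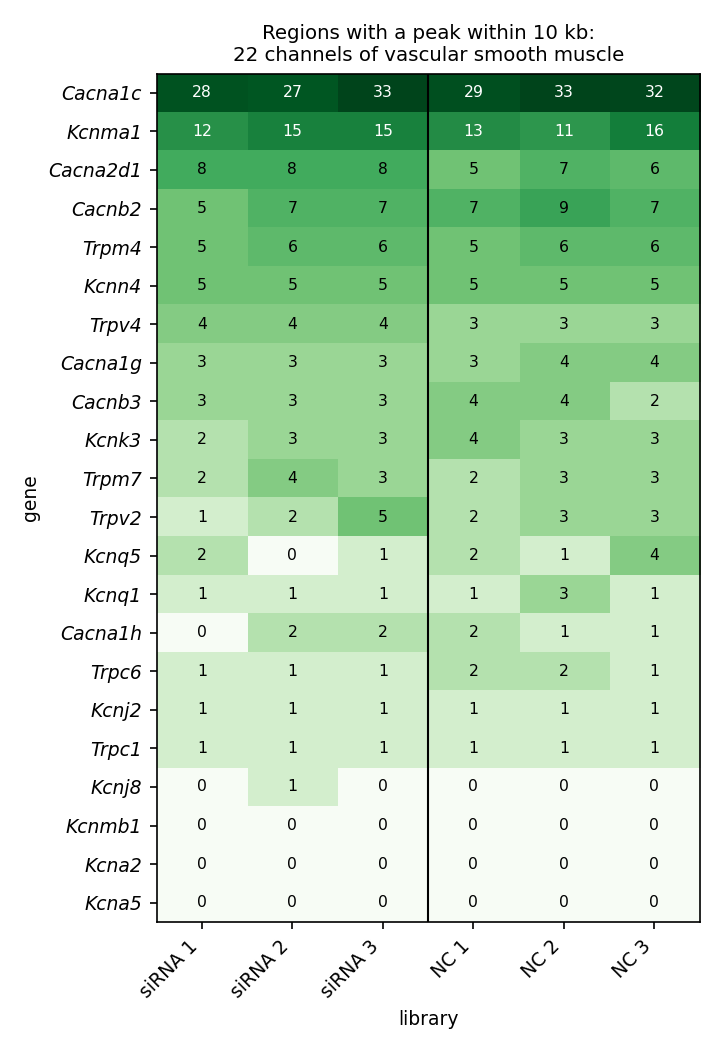
Rows are 22 of the 25 channels described in vascular smooth muscle and columns the libraries, siRNA-labelled left of NC-labelled, and each cell gives the number of regions with a peak within 10 kb of the gene. Cacna1c (27 to 33) and Kcnma1 (11 to 16) stand above the others, and Kcnmb1, Kcna2 and Kcna5 are at 0 in every library. Counts are not scaled by gene length. Per 100 kb of gene and flanks, Cacna1c held 8.41 and Kcnma1 3.82 regions, against 1.53 in Trpc1 and 14.1 in Kcnn4.

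**Figure D4:**
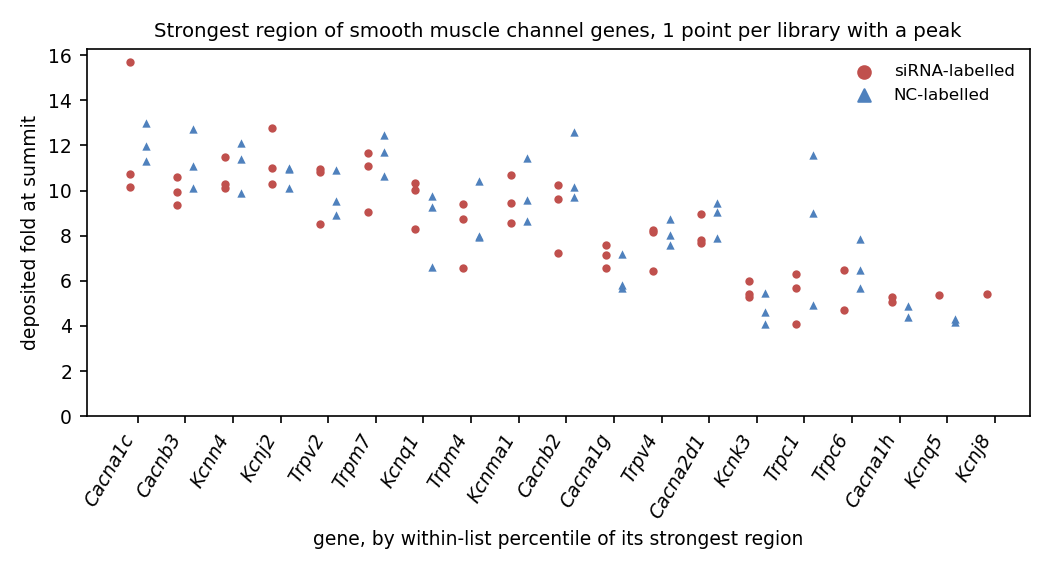
For smooth muscle channel genes with a region, points give the deposited fold at the summit of its strongest region in each library with a peak there, siRNA-labelled (circles) left of NC-labelled (triangles), genes ordered by the within-list percentile of that region. The groups overlap for Cacna1c, Kcnn4, Kcnj2 and Trpm7, and genes at the right end have a peak in few libraries.

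The comparison of the groups asked whether channel genes lost Arid3a peaks in the siRNA-labelled libraries. The number of channel genes with a peak was 90, 103 and 101 in siRNA-labelled and 97, 96 and 100 in NC-labelled libraries (98.0 ± 7.0 against 97.7 ± 2.08, SD, n = 3 each, two-sided exact permutation p = 1). Channel regions numbered 273, 330 and 345 against 319, 327 and 340 in NC-labelled libraries (316 ± 38.0 against 329 ± 10.6, SD, n = 3 each, exact permutation p = 0.9). Both counts overlapped between the groups, and siRNA-labelled library 1 was the lowest. Channel gene starts with a peak numbered 15, 18 and 22 against 18, 22 and 16 (exact permutation p = 1).

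Peak length was lower in each siRNA-labelled library than in any NC-labelled one. Peaks covered 133, 142 and 159 kb of channel genes and their flanks in siRNA-labelled libraries and 171, 175 and 170 kb in NC-labelled libraries (145 ± 12.9 against 172 ± 2.61 kb, SD, n = 3 each). The exact permutation p was 0.1, the smallest possible for 3 against 3, so the test could not pass 0.05. The whole lists moved with it, at 23.8 ± 1.47 Mb in siRNA-labelled and 27.5 ± 0.171 Mb in NC-labelled libraries (SD, n = 3 each, exact permutation p = 0.1), as did the background given above, and their part in the result was not tested. As a share of the covered length, channel genes held 0.607 ± 0.0164% in siRNA-labelled and 0.624 ± 0.00651% in NC-labelled libraries (SD, n = 3 each, exact permutation p = 0.2). The mean peak was 467 to 514 bp wide over the whole lists of siRNA-labelled libraries and 549 to 573 bp in NC-labelled ones.

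Few channel regions divided the libraries by group. No channel region had a peak in all 3 siRNA-labelled and no NC-labelled library, a pattern found in 0.342% of all regions. The reverse pattern held for 3 of the 607 (0.494%), against 0.608% of all regions, which is near the background. All 3 lay inside Cav genes and were weak. The region in Cacna1a (chr8:84621362-84621698) had a fold of 4.52, 5.99 and 7.25 in NC-labelled libraries, that in Cacnb1 (chr11:98004075-98004552), which encodes the beta subunit of skeletal muscle, 3.20, 2.62 and 3.41, and that in Cacnb2 (chr2:14612786-14613383) 6.38, 5.00 and 6.46. An absent peak does not mean that no fragments fell there. Over whole genes, 0 of 143 members held a region of the siRNA-labelled kind and 3 held a region of the NC-labelled kind, against 1.06% and 1.94% of all protein-coding genes.

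Peak strength was compared at the 173 channel regions present in every library. Fold and p of a peak fix the number of fragments at its summit, and log2 of that number, centred on each library's median, was fitted with limma over all 29602 such regions. At a Benjamini-Hochberg adjusted p of at most 0.05, 0 of the 173 were higher and 0 lower in siRNA-labelled libraries, against 0.0912% higher and 0.118% lower of all 29602. At an unadjusted p under 0.05, 9 channel regions were higher and 11 lower, together 20 of 173, against 11.1% of all. The median log2 difference over the channel regions was 0.0017, with 87 above 0 and 86 below, and over all regions 0.0012. Centring on the median fixes the balance over all regions near 0. With scaling by background instead, 118 channel regions lay above 0 and 55 below, with a median of 0.10 over the channel regions and 0.10 over all, and 13 were higher and 3 lower at an unadjusted p under 0.05, with 0 past the adjusted threshold. With the log2 fold in place of fragments limma called none of all 29602 regions, of which 2183 had an unadjusted p under 0.05.

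By channel class, the median log2 difference ran from −0.17 over the 4 TRPC regions to 0.12 over the 5 TRPV regions, with 0.03 over the 33 Cav alpha1 and 0.02 over the 26 TRPM regions. The 57 regions of smooth muscle channels had a median of 0.02 and the 16 regions of neuronal channels 0.03. At the upstream region of Cacnb3 the centred difference was −0.40 ± 0.13 (SE, limma adjusted p = 0.166). At the Cacna1c region with the highest rank it was −0.19 ± 0.14 (limma adjusted p = 0.644), at the Kcnma1 region −0.04 ± 0.20 (limma adjusted p = 0.968) and at the Kcnn4 start −0.05 ± 0.14 (limma adjusted p = 0.941). At the strongest Trpm3 region it was −0.26 ± 0.10 (limma adjusted p = 0.287), and at Kcnip2, inside Oga, 0.02 ± 0.07 (limma adjusted p = 0.950).

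The smallest adjusted p belonged to a region 2707 bp from Kcnd1 inside Otud5, named after its values were seen. It held 38, 31 and 39 fragments in siRNA-labelled and 71, 68 and 56 in NC-labelled libraries (log2 difference −0.55 ± 0.15, limma adjusted p = 0.114). Without siRNA-labelled library 1, limma called 1 channel region higher and 3 lower, against 0.365% and 0.763% of all regions. They were the Kcnh4 region in Rab5c (limma adjusted p = 0.0210), and the lower regions at Kcnd1 (0.0154), Kcnh3 (0.0342) and Kcnab3 (0.0455), of which Kcnd1, Kcnh3 and Kcnab3 were named after their values were seen. Over the other alternatives none passed, and the adjusted p of these 4 regions reached 0.675 to 0.781.

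**Figure D5:**
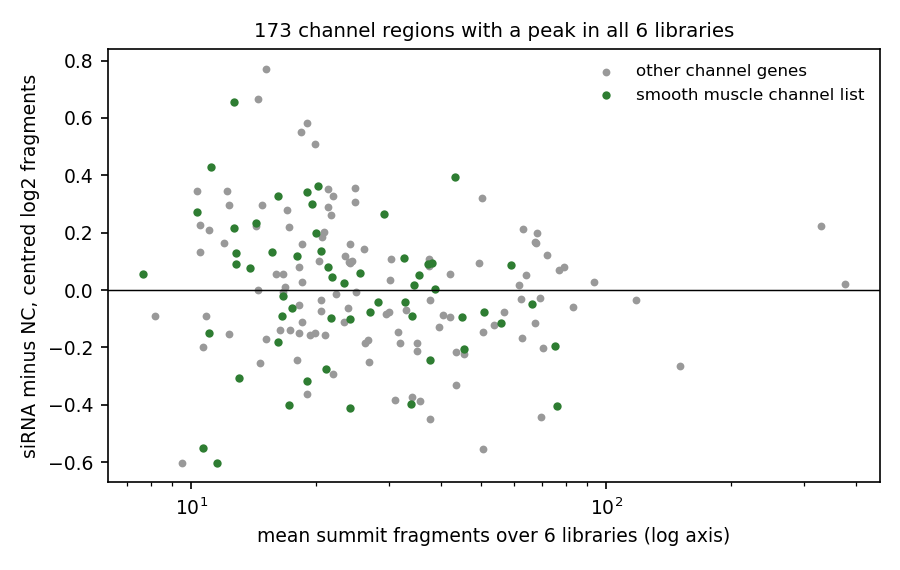
Each point is 1 of the 173 channel regions present in all 6 libraries, with its mean summit fragments on a log axis and, on the y axis, the centred log2 difference of summit fragments, siRNA-labelled minus NC-labelled. Green points belong to channels described in vascular smooth muscle; after centring on library medians points lie on both sides of 0 (87 above, 86 below; 118 and 55 with scaling by background) and scatter more widely where fragments are few.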

How the data were processed

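Each library has a deposited peak list of its own, so nothing was pooled before peak calling. The tools were Bowtie2 (genome mm10), Picard and MACS2, per the submitters' processing notes, and no source used here gives their versions. A peak in the deposited lists carries a score, a fold over local background at its summit (a ratio), and a p-value and q-value as −log10. Total reads were not used here, so depth is known only through the solved background. With a pseudocount of 1, fold and −log10 p fix a whole number of summit fragments, solved for 100% of summits within a relative tolerance of 0.002. The solver and the limma fit were tested on simulated data. Median summits held 16 fragments in each siRNA-labelled and 18 to 20 in NC-labelled libraries, so counting error at a typical peak is large.

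Peaks sharing at least 1 bp were merged into regions. Where a library had several peaks in a region, the peak with the highest −log10 q gave its values. Genes came from RefSeq on GRCm38.p6, and 110 of 143 members matched the promoter table. Library values went into an exact permutation test (two-sided, 20 assignments), and summit fragments with limma 3.58.1 (trend) in R 4.3.3, with Benjamini-Hochberg adjustment over all regions. Python 3.11.15 with pandas 2.3.3 and scipy 1.17.1 did the rest. The members, gene lists and tests were chosen with earlier results of these data known. Named genes were the smooth muscle channels, the 2 genes of each class with the highest within-list percentile of −log10 q (median over 6 libraries), and genes with a region that all libraries of a single group share while the other group lacks it, or one past the limma threshold. siRNA-labelled libraries 2 and 3 differed by a mean chi-square of 0.691 per region, below pairs with library 1 (0.825 and 0.816) and near the NC-labelled pairs (0.700 to 0.733). Since their labels name different siRNAs, they were kept apart, with both as 1 sample among the alternatives. Alternatives changed the gene window, peak threshold, overlap, scaling, pseudocount, low-value filter, replicate block and libraries used. Values of some single genes are not reported here.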

Additional observations from a re-analysis of the deposited data

Results flagged for a closer look

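In 6 of 6 deposited lists the peaks are named after the opposite group, NC in siRNA-labelled lists and Si in NC-labelled ones, under an unchanged number. This column is outside the values used for the comparisons. If the peak names were right and the sample labels wrong, every direction given for channel genes would turn: the longer channel peaks of the NC-labelled libraries would then be those of the siRNA libraries, and the regions in Cacna1a, Cacnb1 and Cacnb2 would have peaks in siRNA libraries only. The counts over all 6 libraries, such as the channel starts and the regions of Cacna1c, do not depend on it.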

How the results depend on the processing

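Of 97 values under alternatives, 71 kept their direction, or for counts lay within 1.5 times. The side of the 0.05 threshold was also compared, but it could not change. The smallest possible permutation p was 0.1 for 3 against 3, so no such test could pass. The size of a difference was not weighed. With the replicate block, the differences in channel genes, channel regions and peak length repeat the main values and do not show stability. The difference in channel genes with a peak (siRNA minus NC, 0.333) turned to −0.333 with the gene body only, −3.33 with gene ends only, −2.33 with −log10 q of at least 5 and −1.67 with siRNA-labelled libraries 2 and 3 as 1 sample, and ran from −2.17 to 4.33 when a library was left out. The difference in channel regions (−12.7) ran from −27.2 to 8.83, above 0 without siRNA-labelled library 1. Channel peak length (−27.1 kb) lay between −34.2 and −21.5 kb when a library was left out, at −20.5 kb with the gene body only and at −4.75 kb with gene ends only. Channel regions in siRNA-labelled libraries only (0) came to 3 with libraries 2 and 3 as 1 sample and 1 to 5 without a library, and regions in NC-labelled libraries only (3) to 0, 1 and 5 with gene ends only, −log10 q of at least 5 and equal list lengths, and to 4 to 12 without a library. Genes with a region in every library (71) came to 21 with gene ends only and to 71 to 75 without a library. Channel regions called by limma were 0 to 1 higher and 0 to 3 lower without a library.

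Replicate numbers did not pair the libraries (correlations of same-numbered deviations 0.0404, 0.0315 and −0.0209). With the replicate block limma called 0 channel regions either way, and 129 of all regions against 62 without it. Other alternatives gave 0 to 334 calls over all regions, 334 without siRNA-labelled library 1. Scaling by background shifted the median of all regions by 0.10 and made 89.7% of its calls higher, against 43.5% with median centring, with no channel call. The cause of these changes was not tested. Depth limits single regions: the typical summit held 16 to 20 fragments.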

Other observations

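Genes of calcium handling outside the symbol rule, among them channels of other families, held many regions present in every library. The inositol trisphosphate receptors Itpr1, Itpr2 and Itpr3, which release calcium from stores, held 9, 9 and 4 of them, the mitochondrial uniporter gene Mcu held 7, and the plasma membrane pump Atp2b4 held 6. The calcium-activated chloride channel gene Ano1, which depolarises smooth muscle, held 5 of 9 regions in every library, with 6, 7 and 7 regions in siRNA-labelled and 6, 7 and 7 in NC-labelled libraries. Slc8a1, the sodium-calcium exchanger, held 1 region with a peak in all siRNA-labelled and no NC-labelled library, and Atp2b1 held 1 region of the reverse kind, patterns found near 1.06% and 1.94% of all protein-coding genes. Of the 98 regions of this list tested with limma, 0 were higher and 0 lower at an adjusted p of at most 0.05, against 0.0912% and 0.118% of all regions. At an unadjusted p under 0.05, 5 were higher and 5 lower, together 10 of 98, against 11.1% of all regions. Abcc9, the KATP regulatory subunit of vessels, Ryr3 and Trpa1 had no region in any library.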
